A study of Mus musculus with 24 samples.

Results

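The genes described here are 10 enzymes and regulators of fatty acid synthesis and desaturation, Srebf1, Acly, Acss2, Acaca, Fasn, Scd1, Scd2, Elovl6, Fads1 and Fads2. They were taken by symbol from the 35770 gene symbols of the expression table, and all 10 passed the filter on low values that left 13661 genes for testing. RNA was measured in 24 libraries of macrophages grown from mouse bone marrow (BMDM), 3 in each of 8 groups. BMDMs from C57BL/6 mice received control media or conditioned media (CM) from LL2 cells, a murine lung carcinoma line, and the LL2 cells were unedited (WT) or carried a knockout of KEAP1 or of NRF2. KEAP1 is the protein that holds the transcription factor NRF2 in check, and the knockouts were in the cancer cells, so the macrophages were of 1 genotype throughout. Each medium was given for 24 h with vehicle or with 100 nM CDDO-Me (bardoxolone methyl), a synthetic oleanane triterpenoid that activates NRF2. Differentiation in M-CSF was shared by all 8 groups. The sources call the 3 samples of a group separate samples but do not tie them to separate mice, so p-values measure the spread between these samples, which may be technical.

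Fatty acids are built in the cytosol from acetyl-CoA. Acly makes acetyl-CoA from citrate and Acss2 makes it from acetate, Acaca carboxylates it to malonyl-CoA, and Fasn joins these units into palmitate. Elovl6 lengthens palmitate, Scd1 and Scd2 place the first double bond in saturated chains, and Fads1 and Fads2 desaturate polyunsaturated chains. Srebf1 encodes SREBP1, a membrane-bound transcription factor that is cleaved when needed and then switches on most of the other genes in this list. In macrophages these lipids feed membrane growth and storage droplets, and the pathway is known to shift with activation state.

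The promoters were read from GRCm39 as the 250 bases before the start of each gene's canonical transcript. A script searched both strands for the sterol regulatory element (SRE, TCACCCCAC), the CCAAT box (CCAAT), the E-box (CACGTG), the GC box (GGGCGG) and the core of the antioxidant response element (ARE, TGACNNNGC). The promoters of Scd1 and Fads2, 2 desaturase genes called with KEAP1 KO CM against media under vehicle and with CDDO-Me in WT CM and KEAP1 KO CM, are shown whole with the CCAAT box, the site of NF-Y, in capitals on either strand. Fasn and Acss2 are shown as the stretch around the SRE and the ARE, in capitals. All 250 bases of their windows lie in an annotated untranslated region, against 0 bases for Scd1 and Fads2. For Fasn, Acss2 and also Scd1, an annotated transcript starts further upstream than the window. Scd1 is at chr19:44396341-44396590 on the minus strand, Fads2 at chr19:10079204-10079453 on the minus strand, the Fasn stretch at chr11:120715063-120715091 on the minus strand and the Acss2 stretch at chr2:155359846-155359867 on the plus strand.
Scd1: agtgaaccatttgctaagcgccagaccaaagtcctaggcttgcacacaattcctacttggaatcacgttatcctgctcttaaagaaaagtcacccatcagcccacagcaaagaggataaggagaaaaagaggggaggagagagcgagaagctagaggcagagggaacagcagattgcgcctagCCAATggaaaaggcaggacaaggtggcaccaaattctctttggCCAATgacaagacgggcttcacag
Fads2: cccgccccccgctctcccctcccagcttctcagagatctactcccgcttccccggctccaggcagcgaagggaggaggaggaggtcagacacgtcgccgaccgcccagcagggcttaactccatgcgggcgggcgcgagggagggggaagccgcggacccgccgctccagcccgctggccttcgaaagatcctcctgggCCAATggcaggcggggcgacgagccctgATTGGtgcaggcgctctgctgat
Fasn: cgcgcgggcaTCACCCCACcggcggcggc
Acss2: cggtttttgcTGACCCCGCccc

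The SRE in Fasn began 146 bases before the transcript start and was the only one in the 10 promoters, where 0.446% of 21757 promoters of the same length held it. CCAAT was in 3 of 10 promoters (Fasn, Scd1 and Fads2) against 36.5% of all, and the GC box in 5 of 10 against 36.3%. An E-box was found in Acaca alone, against 6.26% of all. The ARE core was found in Acss2 alone, 12 bases before the start, against 9.70% of all. A match is a description of letters in this window and not evidence of binding. Scd1 and Scd2 lie 87590 bases apart on chromosome 19, and Fads1 and Fads2 lie 80963 bases apart on the same chromosome.

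Values are TPM, transcript abundances scaled to a fixed total, a level per transcript length within a library, so levels can be set against each other between genes. Fold changes and tests are on log2(scaled TPM + 1), which understates the change of low genes, and a gene is called at a Benjamini-Hochberg adjusted p under 0.05 in limma over all genes tested. Read depth cannot be had from TPM. Between 15702 and 18993 genes were above 0 in a library. The 9 macrophage markers summed to 15017 to 38485 TPM in every library, with Lyz2 alone at 12084 to 34332 TPM. This sum differed between groups. Under vehicle it was 22453 to 23023 TPM in media, 17575 to 18238 in WT CM, 16900 to 20775 in KEAP1 KO CM and 23769 to 27226 in NRF2 KO CM. Under CDDO-Me it was 21738 to 25228, 15017 to 18358, 17391 to 18234 and 28782 to 38485 TPM in the same order. Its part in the results was not tested. The third libraries of the NRF2 KO CM groups stood apart, with array weights of 0.0358 (vehicle) and 0.0735 (CDDO-Me) where the others were 0.443 or more, and with 9.87% and 4.74% of TPM on mitochondrially encoded genes against 3.32% or less elsewhere. These weights down-rank a library by its distance from its group. Counts of called genes that rest on these 2 libraries are given with and without them.

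Across the 8 groups the lowest and highest group means of Fasn differed by 5.86-fold, those of Scd1 by 8.08-fold, those of Fads2 by 5.65-fold and those of Elovl6 by 5.15-fold. The KEAP1 KO CM/vehicle group held the highest mean of 8 of the 10 genes. The WT CM/CDDO-Me group held the lowest mean of 7 of them. Acss2 was the exception in both size and order, with its lowest mean in media/vehicle and its highest in media/CDDO-Me, 22.4-fold apart. Fads1 moved least, by 1.21-fold between its lowest and highest group mean. In bulk RNA, fewer cells of a type and less RNA per cell cannot be told apart.

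**Figure D1:**
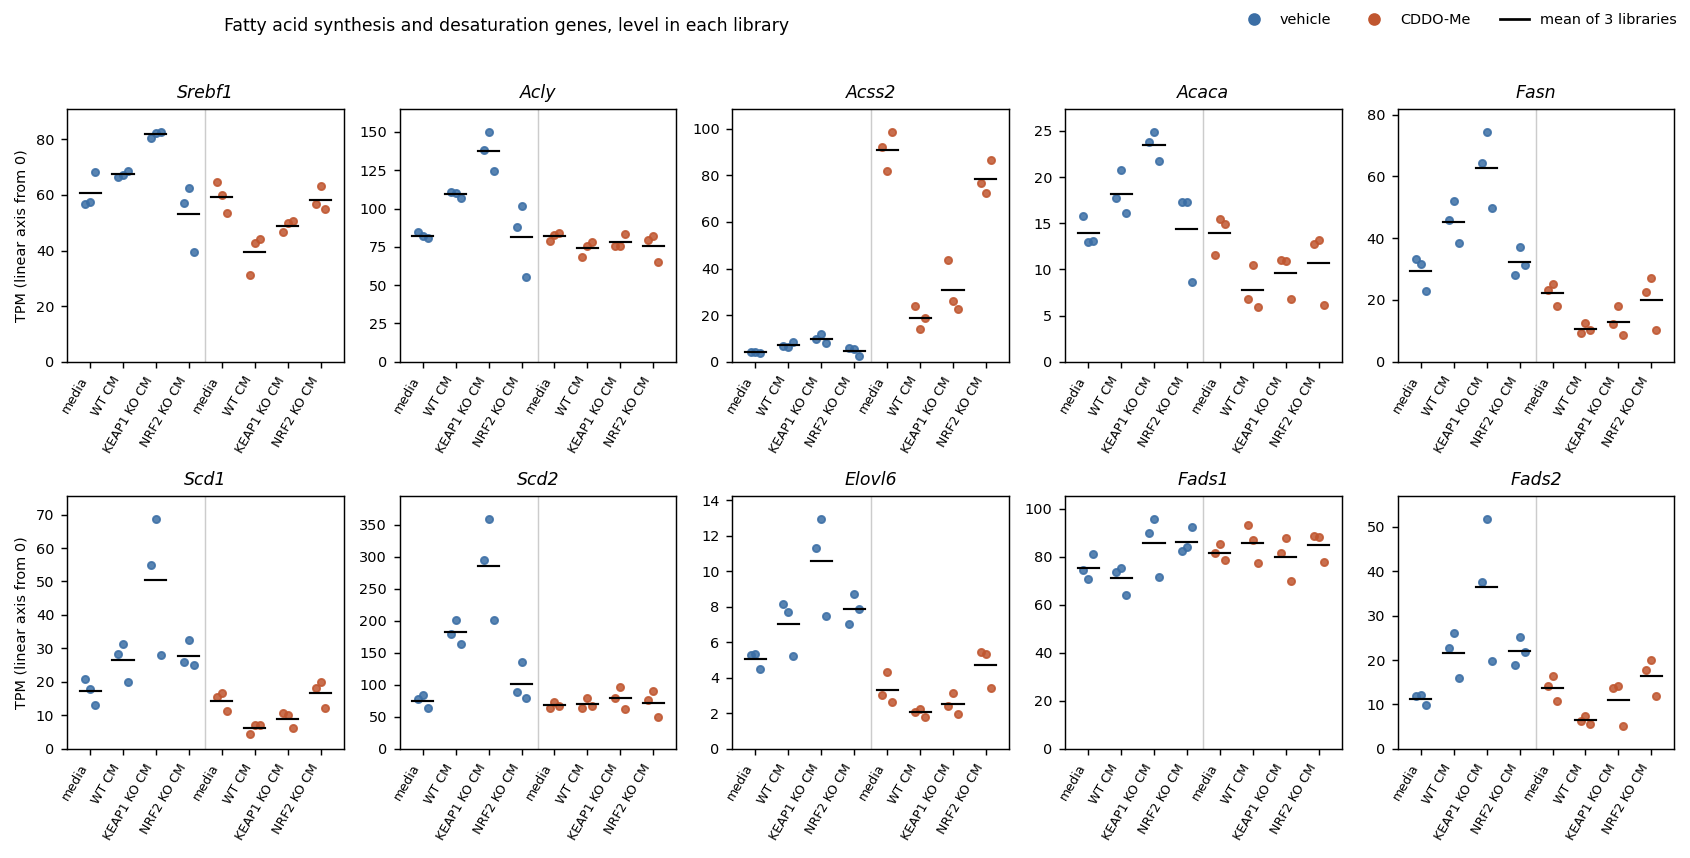
Level of each of the 10 genes in TPM (linear axis from 0) in every library, with groups on the horizontal axis, vehicle in blue, CDDO-Me in orange and the mean of 3 libraries as a black line. Most genes peak in KEAP1 KO CM/vehicle and are low in WT CM/CDDO-Me, where the mean of Fasn was 62.8 and 10.7 TPM, while Acss2 is highest in media/CDDO-Me at 91.0 TPM.

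To ask what the tumor media did without drug, each CM was compared with control media under vehicle. With KEAP1 KO CM, 8 of the 10 genes were called higher, where 4.65% of all genes tested were. The median over the 10 was 0.98 on the log2 scale, and that over all genes was 0. With WT CM, 2 of the 10 were called higher, where 4.33% of all genes were, and the median over the 10 was 0.57 against 0.01 over all genes. With WT CM 9 of the 10 differences were positive. An unadjusted p under 0.05 was found for 7 of the 10 with WT CM and 9 with KEAP1 KO CM, and for 2437 and 2576 of all genes. With NRF2 KO CM, limma called none of the 10, where 0.00732% of all genes were called, and 4 of the 10 had an unadjusted p under 0.05. The 3 comparisons share their media/vehicle libraries.

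Scd2, the main stearoyl-CoA desaturase in these cells by level, had the largest difference of the 10 in both called comparisons. Its level was 77.6, 84.0 and 63.6 TPM in media/vehicle, 180.1, 202 and 164 TPM in WT CM/vehicle and 295, 359 and 202 TPM in KEAP1 KO CM/vehicle. Neither tumor group overlapped with media. The log2 difference was 1.34 (SE 0.19, adjusted p = 8.04e-05) with WT CM and 1.87 (SE 0.19, adjusted p = 1.13e-06) with KEAP1 KO CM, in limma's fit of all libraries.

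Scd1, its paralog, was at 20.8, 17.8 and 13.1 TPM in media/vehicle and at 54.9, 68.7 and 27.99 TPM in KEAP1 KO CM/vehicle. The third KEAP1 KO CM library was well below the other 2, but still above every media library. The log2 difference was 1.42 (SE 0.26, adjusted p = 0.00118). Fads2, which desaturates the first step of polyunsaturated chains, had the same order, with 11.9, 12.03 and 9.80 TPM in media/vehicle and 37.7, 51.8 and 19.8 TPM in KEAP1 KO CM/vehicle. Its log2 difference was 1.504 (SE 0.30, adjusted p = 0.00242). With WT CM these genes were at 28.4, 31.3 and 20.1 TPM (Scd1) and 22.7, 26.1 and 16.01 TPM (Fads2), which gave 0.66 (adjusted p = 0.159) and 0.93 (adjusted p = 0.0701), short of the threshold.

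Fasn was at 33.2, 31.7 and 22.9 TPM in media/vehicle, 45.7, 52.0 and 38.4 TPM in WT CM/vehicle and 64.3, 74.4 and 49.6 TPM in KEAP1 KO CM/vehicle. All 6 tumor medium libraries were above all 3 media libraries. With WT CM the log2 difference of 0.69 missed the threshold (adjusted p = 0.111), and in KEAP1 KO CM it was 1.06 (SE 0.25, adjusted p = 0.00869), past it. Elovl6 was a low gene at 5.26, 5.36 and 4.51 TPM in media/vehicle and rose with KEAP1 KO CM to 11.3, 12.9 and 7.47 TPM (0.90, adjusted p = 0.00279). Acaca, the rate-limiting carboxylase, was at 15.8, 13 and 13.03 TPM in media/vehicle and 23.8, 24.9 and 21.8 TPM in KEAP1 KO CM/vehicle, which did not overlap but missed the threshold (0.71, adjusted p = 0.0714). This miss depended on the model. Acaca was called with the replicate number as a block (adjusted p = 0.0194) and with only the compared groups fitted (adjusted p = 0.00423). It was also called without the 2 NRF2 KO CM libraries that stood apart (adjusted p = 0.00636), but not under other scaling or filters.

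The acetyl-CoA sources also differed. Acly was at 84.6, 81.8 and 80.5 TPM in media/vehicle, 111, 110.2 and 107 TPM in WT CM/vehicle and 138, 150.1 and 124 TPM in KEAP1 KO CM/vehicle. No media library reached a tumor medium library, and Acly rose with WT CM by 0.47 (SE 0.11, adjusted p = 0.0139) and with KEAP1 KO CM by 0.72 (SE 0.11, adjusted p = 0.000293). Acss2 was near 4 TPM in media/vehicle (4.32, 4.29 and 3.57 TPM) and rose with KEAP1 KO CM to 9.67, 11.9 and 7.84 TPM (1.07, adjusted p = 0.00869). Srebf1 itself rose with KEAP1 KO CM by 0.42 (SE 0.12, adjusted p = 0.0378), from 56.8, 57.4 and 68.2 TPM to 80.4, 82.4 and 82.7 TPM. This call was lost without scaling (adjusted p = 0.0754), without the filter (adjusted p = 0.0550), and without any 1 of the 3 KEAP1 KO CM/vehicle libraries or of the first 2 media/vehicle libraries (adjusted p = 0.0772 to 0.161). Fads1 was at 70.8 to 81.1 TPM in media/vehicle and 71.6 to 95.7 TPM in KEAP1 KO CM/vehicle, and the groups overlapped (0.16, adjusted p = 0.517).

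**Figure D2:**
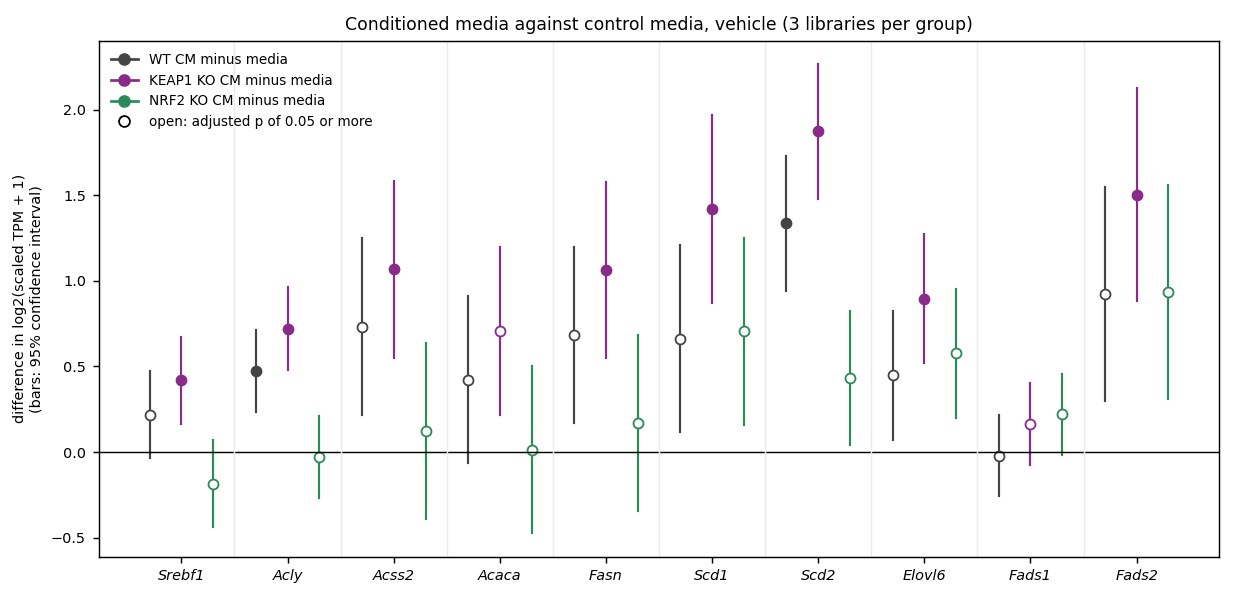
Difference in log2(scaled TPM + 1) between each CM and control media under vehicle for the 10 genes, with 95% confidence intervals (3 libraries per group), filled where the adjusted p was under 0.05. All KEAP1 KO CM points but those of Acaca and Fads1 are filled, Scd2 is highest at 1.87, and no NRF2 KO CM point is filled.

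The WT CM count depends on the model. The replicate number paired the samples in this comparison (every same-numbered pair had a correlation over 0.1), and with the replicate as a block 6 of 10 genes were called. With only the 2 groups compared in the fit 5 were called, and without the 2 NRF2 KO CM libraries that stood apart 5 were called. All genes called under these settings are not given here, so the changes are not read as particular to the 10. Leaving out the second media/vehicle library or the first WT CM/vehicle library left 1 call, that of Scd2.

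In NRF2 KO CM/vehicle, Scd1 was at 26.1, 32.5 and 25.0 TPM and Fads2 at 19.0, 25.2 and 21.8 TPM, above every media library for both genes. Elovl6 was at 7.05, 8.70 and 7.86 TPM, also above media. The log2 differences were 0.71 for Scd1, 0.93 for Fads2 and 0.58 for Elovl6, with adjusted p of 0.395 to 0.406, and that of Scd2 was 0.43. Over the 10 genes the differences ran from -0.19 (Srebf1) to 0.93 (Fads2), with a median of 0.19. Only 1 gene of 13661 passed in this comparison while 1659 had an unadjusted p under 0.05, so the small count is not particular to the 10. Without the 2 libraries that stood apart 0 of the 10 were called, and the difference of 1 gene, Acly, changed sign.

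Which of the tumor media differed from each other was tested next. Between KEAP1 KO CM and WT CM under vehicle all 10 differences were positive, from 0.18 (Fads1) to 0.76 (Scd1), with a median of 0.36 against -0.01 over all genes. Limma called none of the 10, where 0% of all genes were called. An unadjusted p under 0.05 was found for 4 of the 10 and for 341 of all genes. The interval of Scd2 ran from 0.15 to 0.93. With array weights, 7 of the 10 and 1081 of all genes were called.

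WT CM against NRF2 KO CM called 3 genes higher in WT CM, where 6.56% of all genes were. They were Scd2 (0.90, SE 0.19, adjusted p = 0.00363), Acly (0.50, SE 0.11, adjusted p = 0.00784) and Srebf1 (0.40, SE 0.12, adjusted p = 0.0384). Scd2 was at 89.4, 135 and 80.1 TPM in NRF2 KO CM/vehicle, below every WT CM library. KEAP1 KO CM against NRF2 KO CM called 5 genes higher in KEAP1 KO CM, where 5.64% of all genes were. These were Scd2 (1.44, adjusted p = 3.98e-05), Acss2 (0.94, adjusted p = 0.0202), Fasn (0.89, adjusted p = 0.0268), Acly (0.75, adjusted p = 0.000229) and Srebf1 (0.60, adjusted p = 0.00291). With only the 2 groups in the fit neither comparison called any of the 10, and all genes called fell from 1457 to 162 and from 1205 to 129. Without the 2 NRF2 KO CM libraries that stood apart, 2 and 4 of the 10 were called. Srebf1 lost its call in the first comparison (0.27, adjusted p = 0.118) and Acss2 in the second (0.71, adjusted p = 0.0619). The call of Srebf1 against WT CM was also lost in 5 of the 24 fits with 1 library left out. In each comparison 0 calls held in every alternative. Leaving out the first or the second KEAP1 KO CM/vehicle library left 3 of the 5 calls.

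CDDO-Me was then compared with vehicle within each medium. In WT CM all 10 genes changed, 8 lower and 2 higher, where 13.9% of all genes were called lower and 13.9% higher. In KEAP1 KO CM 8 fell and 1 rose, where 14.2% and 14.5% of all genes were called lower and higher. The medians over the 10 were -1.17 and -1.28, and those over all genes -0.03 and -0.02. In control media Acss2 alone rose, where 3.07% of all genes were called higher, and no other member was called. In NRF2 KO CM Acss2 rose and Elovl6 fell, where 4.49% of all genes were called higher and 5.28% lower.

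Fasn fell in WT CM from 45.7, 52.0 and 38.4 TPM to 9.14, 12.6 and 10.4 TPM. In KEAP1 KO CM it fell from 64.3, 74.4 and 49.6 TPM to 12.1, 18.1 and 8.53 TPM. All 6 CDDO-Me libraries were below all 6 vehicle libraries of these media, and below every media/vehicle library too. The log2 differences were -1.88 (SE 0.25, adjusted p = 5.19e-06) and -2.07 (SE 0.25, adjusted p = 1.54e-06).

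Scd1 fell to 4.51, 7.03 and 7.21 TPM in WT CM/CDDO-Me and to 10.8, 10.1 and 6.09 TPM in KEAP1 KO CM/CDDO-Me. Both groups were below the lowest media/vehicle library of 13.1 TPM. The log2 differences were -1.83 (SE 0.26, adjusted p = 1.54e-05) and -2.15 (SE 0.26, adjusted p = 2.18e-06). Scd2 fell to 63.3, 78.7 and 66.4 TPM and to 79.9, 97.3 and 62.4 TPM, by 1.27 (adjusted p = 2.39e-05) and by 1.64 (adjusted p = 1.01e-06) on the log2 scale. Unlike Scd1, these levels lay around those of media/vehicle, 63.6 to 84.0 TPM. The ratio of Scd2 to Scd1 in a library was accordingly 9.20 to 14.0 in WT CM/CDDO-Me and 3.74 to 4.85 in media/vehicle.

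Elovl6 fell to 2.08, 2.27 and 1.81 TPM in WT CM/CDDO-Me and to 2.43, 3.13 and 1.97 TPM in KEAP1 KO CM/CDDO-Me. Its log2 differences were -1.30 (SE 0.18, adjusted p = 1.07e-05) and -1.57 (SE 0.18, adjusted p = 1.06e-06). Fads2 fell to 6.25, 7.46 and 5.63 TPM and to 13.8, 14.1 and 5.18 TPM, by 1.49 in both media (SE 0.30, adjusted p = 0.000636 and 0.000595). Acaca fell to 6.82, 10.5 and 5.92 TPM and to 11.01, 10.9 and 6.82 TPM, by 1.06 (adjusted p = 0.00147) and 1.08 (adjusted p = 0.00125). For all 3 genes no CDDO-Me library reached the lowest vehicle library of the same medium.

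Srebf1 and Acly fell less. Srebf1 was at 31.2, 42.5 and 44.3 TPM in WT CM/CDDO-Me and 46.6, 49.96 and 50.5 TPM in KEAP1 KO CM/CDDO-Me, lower by -0.67 (SE 0.12, adjusted p = 0.000226) and -0.56 (SE 0.12, adjusted p = 0.00127). Acly was at 68.4 to 78.2 TPM and at 75.4 to 83.1 TPM, lower by -0.45 (adjusted p = 0.00534) and -0.64 (adjusted p = 0.000209). Fads1 went the other way in WT CM, from 64.1 to 75.3 TPM up to 77.1 to 93.2 TPM (0.38, SE 0.11, adjusted p = 0.0161), but TPM without scaling gave 0.27 (adjusted p = 0.0859). In KEAP1 KO CM it was 0.07 (adjusted p = 0.720). The ratio of Fads1 to Fads2 in a library was 2.88 to 4.01 in WT CM/vehicle and 11.7 to 14.9 in WT CM/CDDO-Me.

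In NRF2 KO CM, Elovl6 fell from 7.05, 8.70 and 7.86 TPM to 5.46, 5.35 and 3.42 TPM (-0.64, SE 0.18, adjusted p = 0.0273). Fasn was at 28.1, 37.2 and 31.3 TPM with vehicle and 22.5, 27.2 and 10.4 TPM with CDDO-Me (-0.75, adjusted p = 0.0617), and Scd1 differed by -0.72 (adjusted p = 0.0987). The replicate number paired the samples here, and with it as a block 5 of the 10 genes were called. All genes called with the block are not given here, so that rise is not read as particular to the 10. Without the 2 libraries that stood apart, Acss2 alone was called, and leaving out the second vehicle library, the third vehicle library or the third CDDO-Me library also left 1 call. In control media, the 9 members other than Acss2 differed by -0.49 (Elovl6) to 0.26 (Fads2), and 2 of the 10 genes were called with the replicate block.

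**Figure D3:**
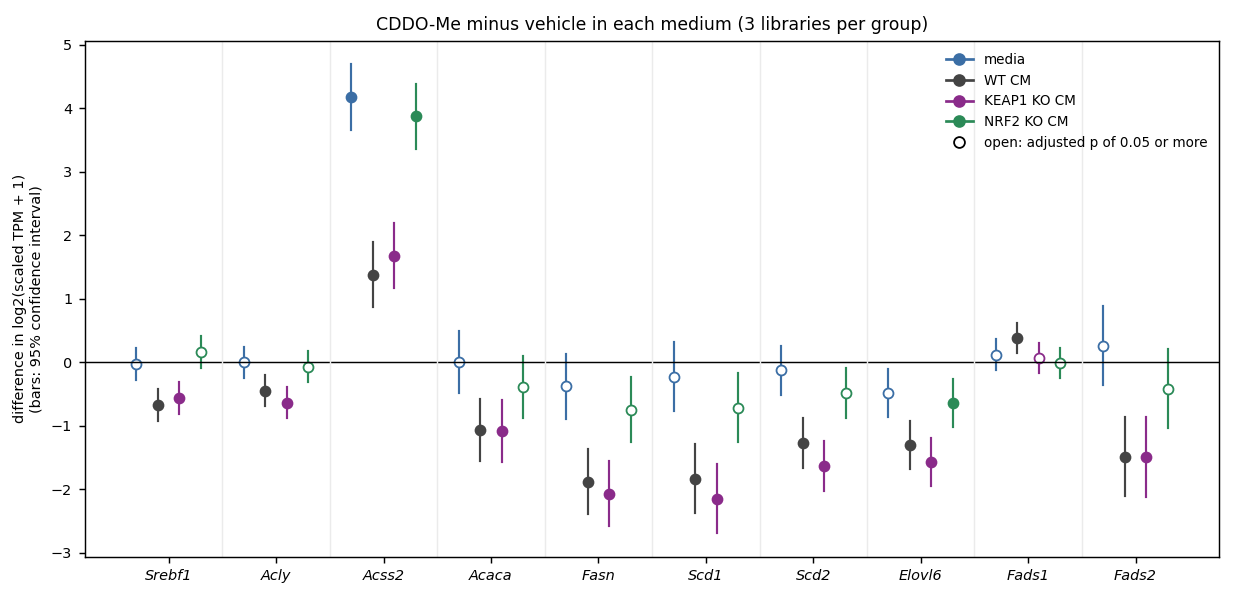
Difference in log2(scaled TPM + 1) between CDDO-Me and vehicle for the 10 genes in each of 4 media, with 95% confidence intervals (3 libraries per group), filled where the adjusted p was under 0.05. In WT CM and KEAP1 KO CM the points of Fasn, Scd1, Scd2, Elovl6, Fads2 and Acaca lie below -1, while Acss2 is above 0 in all 4 media and highest in control media at 4.18.

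Acss2, the acetate-using source of acetyl-CoA, was higher with CDDO-Me in every medium. It went from 4.32, 4.29 and 3.57 TPM to 92.2, 82.0 and 98.7 TPM in control media and from 5.71, 5.57 and 2.65 TPM to 76.7, 72.5 and 86.6 TPM in NRF2 KO CM. The levels reached in the other 2 media were lower, with 24.0, 14.0 and 18.9 TPM in WT CM and 43.7, 26.0 and 22.7 TPM in KEAP1 KO CM. The log2 differences were 4.18 (SE 0.25, adjusted p = 8.49e-09) in control media and 3.87 (SE 0.25, adjusted p = 4.48e-09) in NRF2 KO CM. They were 1.38 (SE 0.25, adjusted p = 0.000196) in WT CM and 1.68 (SE 0.25, adjusted p = 2.11e-05) in KEAP1 KO CM. Acly did not rise in any medium, so the ratio of Acss2 to Acly in a library went from 0.0443 to 0.0525 in media/vehicle to 0.992 to 1.17 in media/CDDO-Me.

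Acss2 (chr2:155355679-155428016, plus strand of GRCm39) overlaps Gss, which encodes glutathione synthetase and runs on the opposite strand. The 2 genes share 1511 exonic bases, which is 7.64% of the exonic bases of Acss2 and 21.9% of those of Gss. The strand setting of the library kit and of the counting is not given in the sources used here, so reads from the shared stretch cannot be told apart. Gss was also the tested gene whose log2 values were most like those of Acss2, with a Pearson r of 0.968 over the 24 libraries, which share their groups. It was at 15.3, 16.1 and 18.0 TPM in media/vehicle and 101, 98.0 and 132 TPM in media/CDDO-Me (2.66, adjusted p = 8.23e-07). The ratio of Acss2 to Gss was 0.198 to 0.283 in media/vehicle and 0.747 to 0.917 in media/CDDO-Me, and the part of the shared stretch in the rise of Acss2 was not tested. Among established NRF2 targets, Gclm rose in control media by 3.82 (adjusted p = 5.45e-08) and Nqo1 by 4.85 (adjusted p = 2.10e-08). Gclm rose by 4.09 in NRF2 KO CM, 4.13 in KEAP1 KO CM and 4.06 in WT CM. Nqo1 rose by 5.35, 4.44 and 3.67 in the same order. The limma interaction of WT CM against media, -2.80 and called for Acss2, was 0.24 for Gclm (adjusted p = 0.819) and -1.17 for Nqo1 (adjusted p = 0.108). That of KEAP1 KO CM, -2.50 and called for Acss2, was 0.31 (adjusted p = 0.733) and -0.40 (adjusted p = 0.692). Acss1, the mitochondrial paralog of Acss2, fell in control media from 13.4, 14.0 and 11.9 TPM to 6.17, 7.04 and 5.53 TPM (-0.95, adjusted p = 0.00539).

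**Figure D4:**
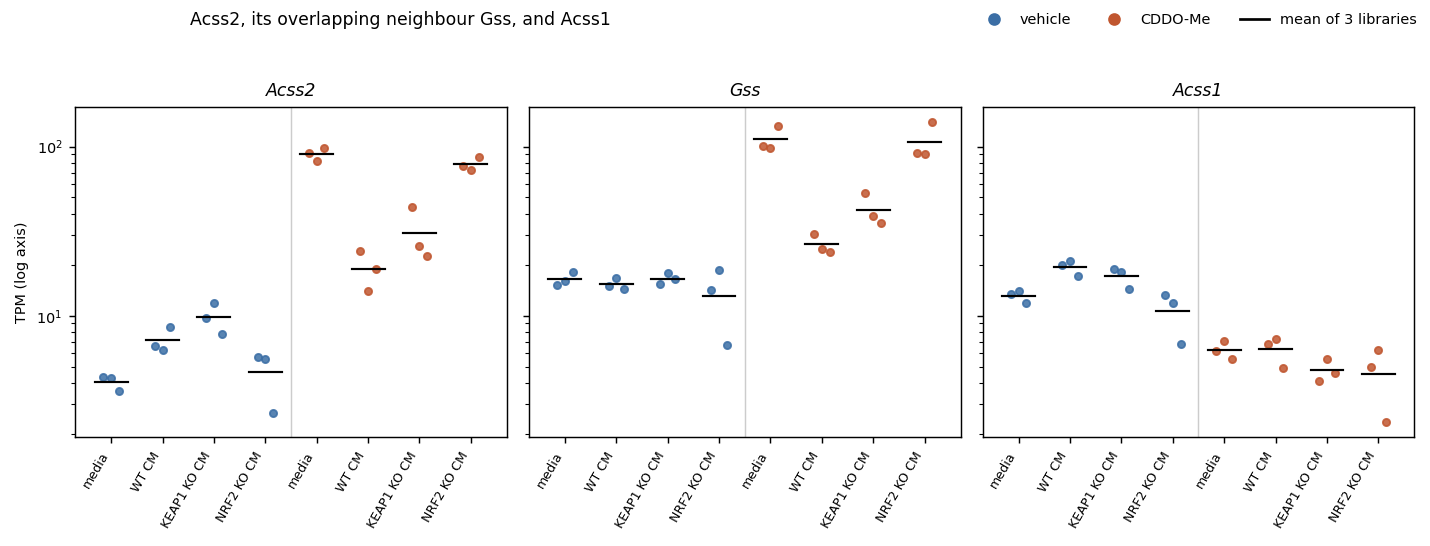
Level in TPM (log axis) of Acss2, of its overlapping neighbour Gss and of Acss1 in every library, with vehicle in blue, CDDO-Me in orange and the mean of 3 libraries as a black line. Acss2 and Gss are higher in all CDDO-Me libraries than in all vehicle libraries of the same medium, with means of 91.0 and 110.3 TPM in media/CDDO-Me, while Acss1 is lower, at 6.25 TPM.

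Whether the tumor media still differed from control media under CDDO-Me was tested in the same way. With WT CM 6 of the 10 genes were lower, where 13.1% of all genes were called lower. They were Acss2 (-2.07, adjusted p = 2.35e-06), Scd1 (-0.94, adjusted p = 0.0102), Fasn (-0.82, adjusted p = 0.0168), Fads2 (-0.82, adjusted p = 0.0478), Acaca (-0.64, adjusted p = 0.0472) and Srebf1 (-0.42, adjusted p = 0.0124). Leaving out the first WT CM/CDDO-Me library left 1 call, that of Acss2, and leaving out the first or second media/CDDO-Me library left 3. The call of Fads2 was lost in 19 of the 24 fits with 1 library left out and under 4 other settings, and that of Acaca in 14 and under 4. The replicate number paired the samples in this comparison, and with the replicate block Elovl6 was called as well (-0.37, adjusted p = 0.0473). With KEAP1 KO CM Acss2 alone was lower (-1.43, adjusted p = 0.000191), where 10.2% of all genes were called lower, and Fasn differed by -0.63 (adjusted p = 0.0723). The replicate block, which paired the samples here, called 3, and leaving out the second KEAP1 KO CM/CDDO-Me library or the third NRF2 KO CM/CDDO-Me library gave 2. With NRF2 KO CM limma called none, where 0.154% of all genes were called, and 1 of the 10 had an unadjusted p under 0.05 (Elovl6, 0.42). Without the 2 libraries that stood apart 0 were called as well, and the differences of 2 genes, Srebf1 and Fasn, changed sign.

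The interaction term sets the response to CDDO-Me in a tumor medium against that in control media. It was lower in WT CM than in media for 8 of the 10 genes, where 6.74% of all genes were called lower, and lower in KEAP1 KO CM for 9, where 6.36% of all genes were. For Fasn it was -1.51 (SE 0.35, adjusted p = 0.00456) in WT CM and -1.70 (SE 0.35, adjusted p = 0.00166) in KEAP1 KO CM. For Acss2, which rose in all 4 media, it was -2.80 (SE 0.35, adjusted p = 7.13e-06) and -2.50 (SE 0.35, adjusted p = 3.11e-05). Fads1 was the gene called in neither. Leaving out the first WT CM/CDDO-Me library left 5 of the 8 calls. With 1 library left out, the count for KEAP1 KO CM ran from 7 to 9. For NRF2 KO CM against media limma called none of the 10, where 0% of all genes were called, 0 of the 10 and 374 of all genes had an unadjusted p under 0.05, and the values ran from -0.67 (Fads2) to 0.19 (Srebf1). Between KEAP1 KO CM and WT CM the effect of CDDO-Me was called different for none of the 10 and for 0% of all genes, with 0 of the 10 and 225 of all genes at an unadjusted p under 0.05. Without the 2 NRF2 KO CM libraries that stood apart the NRF2 KO CM interaction also called 0 of the 10, and the sign changed for 2, Fasn and Elovl6. For KEAP1 KO CM against WT CM the interval of the difference ran from -0.92 to 0.54 for Fasn and from -0.43 to 1.03 for Acss2, so differences of that size were not detectable.

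Markers of other cell types moved with some of these groups. The 13 fibroblast markers, none of which was called in the 3 media comparisons under vehicle, summed to 1317 to 2403 TPM in media/vehicle, 916 to 1930 TPM in WT CM/vehicle and 1293 to 2514 TPM in KEAP1 KO CM/vehicle. They summed to 377 to 992 TPM in WT CM/CDDO-Me and 322 to 1362 TPM in KEAP1 KO CM/CDDO-Me. Of the 13, 1 was called lower with CDDO-Me in WT CM and 2 in KEAP1 KO CM, where 13.9% and 14.2% of all genes were. These 2 counts were near or below that share. Against media under CDDO-Me, 5 were called lower with WT CM and 3 with KEAP1 KO CM, where 13.1% and 10.2% of all genes were. Lum alone was at 0 in a library. In the remaining groups the sum was 1100 to 3558 TPM in NRF2 KO CM/vehicle, 1141 to 3014 TPM in media/CDDO-Me and 589 to 2361 TPM in NRF2 KO CM/CDDO-Me. The fibroblast mean and the member levels, both taken as deviations from group means, had a Pearson r over the 24 libraries of 0.801 for Fasn, 0.801 for Fads2, 0.794 for Scd2, 0.705 for Acaca, 0.697 for Elovl6 and 0.682 for Scd1, and of -0.217 to 0.153 for the other 4 genes. The library numbered 3 had the lowest fibroblast mean in every group, and in most groups the lowest Fasn, Scd1 and Fads2. The 24 deviations are thus not independent, and the part of the replicate number in these r values was not tested. With the mean log2 level of these markers as a term in the fit, added after the data were seen, 10 and 9 of the genes were called for CDDO-Me in WT CM and KEAP1 KO CM, 7 and 9 for WT CM and KEAP1 KO CM against media under vehicle, and 8 and 9 for the interactions. The 6 called genes in WT CM against media under CDDO-Me became 3 in that fit. All genes called in that fit are not given here, so its counts are not read as particular to the 10.

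The 6 adipocyte markers summed to 0.490 to 2.90 TPM in media/vehicle, 4.78 to 8.69 TPM in WT CM/vehicle, 3.85 to 6.15 TPM in KEAP1 KO CM/vehicle and 0 to 0.625 TPM in both of these media with CDDO-Me. Adipoq made up most of this, and Lep was at 0 in 23 of the 24 libraries. The 6 carcinoma markers, Krt8, Krt18, Epcam, Cdh1, Krt19 and Cldn4, summed to 1.55 to 2.53 TPM in media/vehicle, 4.98 to 6.01 TPM in WT CM/vehicle and 8.76 to 9.35 TPM in KEAP1 KO CM/vehicle. Of these 6, 5 had a median under 1 TPM. Epcam was at 0 in 16 libraries, Cldn4 in 15 and Krt8 in 12, while Cdh1 reached 5.19 TPM and Krt19 4.08 TPM. The 6 dendritic cell markers summed to 100.3 to 127 TPM in WT CM/CDDO-Me and 47.0 to 86.2 TPM in KEAP1 KO CM/CDDO-Me against 0.998 to 2.13 TPM in the other groups, carried by Clec9a. The 8 neutrophil markers summed to 12.6 to 37.6 TPM in the vehicle groups and 53.2 to 775 TPM in the CDDO-Me groups. The highest sum was carried by Mmp8, which reached 711 TPM, while Ly6g was at 0 in 19 libraries. Of the 8 markers, 5 had a median under 1 TPM. The part of these 4 lists in the results above was not tested.

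Genes next to this pathway were taken as 9 lists. The 20 sterol synthesis genes moved most like the 10. With KEAP1 KO CM against media under vehicle 16 of 20 were called higher, where 4.65% of all genes were, with a median of 0.95 against 0 over all genes. With CDDO-Me in WT CM 17 were called lower and 1 higher, with a median of -1.82. Idi1, the isopentenyl diphosphate isomerase, fell from a mean of 76.4 to 6.44 TPM (-3.30, adjusted p = 5.55e-12) and Sqle, the squalene epoxidase, from 60.4 to 7.60 TPM (-2.74, adjusted p = 7.14e-12). In control media, where 1 of the 10 fatty acid genes was called, CDDO-Me lowered 9 of the 20 sterol genes, with a median of -0.51, where 2.94% of all genes were called lower.

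The counts of the other lists with CDDO-Me in WT CM are to be read against the 13.9% of all genes called higher and the 13.9% called lower in that comparison. Of 18 tested genes that control SREBP activity, 6 were called lower and 3 higher, the latter near that share. Insig1, which retains the SREBP complex in the endoplasmic reticulum and is itself an SREBP target, fell from a mean of 96.7 to 17.6 TPM (-2.29, adjusted p = 3.32e-11). Srebf2, the sterol-directed relative of Srebf1, fell from 90.3 to 34.3 TPM (-1.27, adjusted p = 2.24e-08). Under vehicle, Insig1 was the 1 gene of the 18 called in KEAP1 KO CM against media (0.93, adjusted p = 5.76e-05), where 4.65% of all genes were called higher. With WT CM against media 1 of the 18 was called higher as well, where 4.33% of all genes were. Both counts were near the share over all genes.

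Among 13 tested genes of acetyl-CoA, malonyl-CoA and NADPH supply, CDDO-Me in WT CM raised 3 and lowered 4. The NADPH enzymes Pgd and G6pdx rose by 1.52 (adjusted p = 8.20e-09) and 1.21 (adjusted p = 7.34e-08), while Idh1 fell by 1.49 (adjusted p = 1.04e-06) and Slc25a1, the mitochondrial citrate carrier, fell by 0.62 (adjusted p = 1.31e-05). Pgd and G6pdx also rose in control media, by 1.83 and 1.07. Of 9 tested genes of the elongation cycle 1 was called higher and 3 lower in WT CM, and of 8 other desaturase and electron donor genes 3 were called higher and 3 lower.

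Of 21 glycerolipid genes, 2 were called higher and 6 lower with CDDO-Me in WT CM, and Plin2, the coat protein of lipid droplets, fell from a mean of 908 to 247 TPM (-1.75, adjusted p = 2.21e-09). Of 10 uptake and binding genes 1 was called higher and 4 lower, among them Fabp4, a fatty acid binding protein, at 248 and 15.6 TPM (-3.80, adjusted p = 6.50e-12). Of 18 beta-oxidation genes 2 were called higher and 2 lower, no larger a share than over all genes (13.9% each way), and Cpt1a, which admits fatty acids to mitochondria, was higher by 1.04 (adjusted p = 1.38e-05). Of 6 acyl-CoA synthetases 1 was called higher and 2 lower, with Acsl1 higher by 1.48 (adjusted p = 1.63e-05) and Acsl3 at -1.55 (adjusted p = 0.000666).

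**Figure D5:**
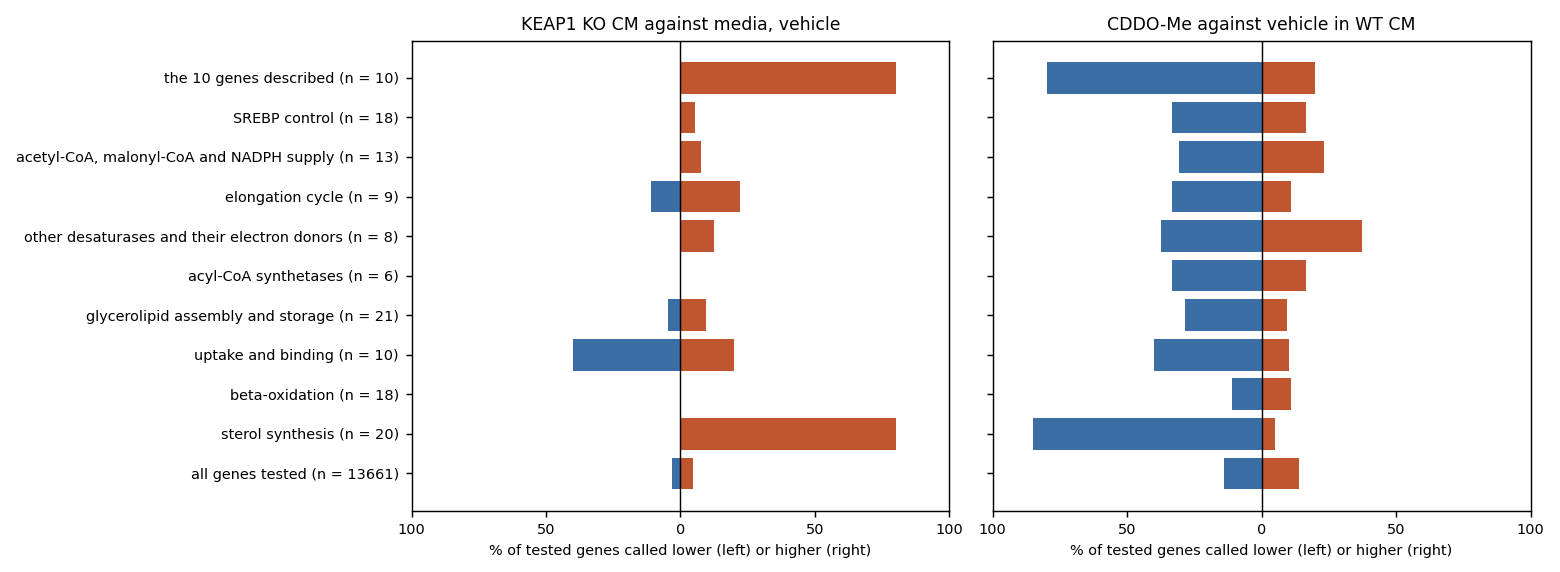
Share of the tested genes called lower (left, blue) or higher (right, orange) for the 10 genes, 9 related lists and all 13661 genes tested, in KEAP1 KO CM against media under vehicle and in CDDO-Me against vehicle in WT CM. The 10 genes and the 20 sterol synthesis genes stand out in both panels, with 8 and 16 called higher in the first and 8 and 17 called lower in the second.

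By likeness over the 24 libraries, 3 genes were named for each member by the highest Pearson r of log2 values, as a description of libraries that share groups. For Fasn these were Acat2 (0.967), Itsn1 (0.959) and Spc25 (0.957), and Acat2 is a sterol synthesis gene. For Scd1 and Elovl6 the nearest was Fdft1, with 0.939 and 0.952, and for Acly it was Mvd, with 0.949, again sterol synthesis genes. Scd2 was nearest to S1pr3 (0.950) and Slc25a1 (0.949). Fads1 had no gene above 0.785, the lowest of the nearest values, and Acaca was nearest to Srm (0.926).

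Sequence shared with other genes limits some of these values. Of the 31-base stretches in its transcripts, Acaca shared 31.3% with other genes, most of them with Gm5182. Fads1 shared 12.7%, mainly with antisense lncRNAs, and Acss2 10.4%, while Fasn shared 0. Scd1 and Scd2 shared 253 such stretches, 3.45% of those of Scd1.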

How the data were processed

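BMDMs under 4 media, each with vehicle or CDDO-Me, gave 24 poly-A RNA-seq libraries, 3 per group as labelled. The authors pseudoaligned reads with Kallisto to the GRCm39 transcriptome and deposited TPM values summed per gene, the unit used here. The row without a gene name (0.0199% to 0.0635% of TPM) was left out. TMM factors were computed on genes above 1 TPM in at least 3 libraries, and log2(scaled TPM + 1) was fitted in limma 3.58.1 (R 4.3.3) with a trended prior, 1 mean per group, 24 libraries and 16 residual degrees of freedom. P-values were Benjamini-Hochberg adjusted over 13661 genes in each of 17 comparisons, and the pipeline was tested on simulated data. TPM keeps no depth, so counting error is unknown.

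The 10 genes and all gene lists were chosen with earlier results of these data known. Named genes are the 10, up to 4 genes of each related list with the smallest adjusted p, the 3 genes most alike each of the 10, and cell markers. Gclm and Nqo1 were added outside this rule as established NRF2 targets. Same-numbered libraries correlated in their deviations from group means at 0.0624 to 0.717. In 7 of 13 comparisons every pair was over 0.1, and the number was taken to pair the samples there. The other comparisons also had every pair above 0, so the number may pair their samples too. The main fit carried no block. With the block in all comparisons, 14 of 170 gene values gained a call, and 0 lost one or changed sign. Alternatives covered scaling, filter, pseudocount, trend, array weights, replicate block, groups fitted and libraries left out. Positions, promoters and shared 31-base stretches are from GRCm39 with the GENCODE annotation.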

Additional observations from a re-analysis of the deposited data

Results flagged for a closer look

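The effect of CDDO-Me differed from that in control media, by the interaction term of limma, for 8 of the 10 genes in WT CM. The differences of the log2 effects were -0.64 for Srebf1 (adjusted p = 0.0135), -2.80 for Acss2 (7.13e-06), -1.07 for Acaca (0.0330), -1.51 for Fasn (0.00456), -1.60 for Scd1 (0.00455), -1.14 for Scd2 (0.00494), -0.82 for Elovl6 (0.0346) and -1.75 for Fads2 (0.00658). In KEAP1 KO CM they were -0.53 for Srebf1 (0.0427), -0.64 for Acly (0.00988), -2.50 for Acss2 (3.11e-05), -1.08 for Acaca (0.0312), -1.70 for Fasn (0.00166), -1.92 for Scd1 (0.000942), -1.51 for Scd2 (0.000389), -1.08 for Elovl6 (0.00545) and -1.75 for Fads2 (0.00643). Both comparisons share the control media libraries. Some of these calls were fragile. In WT CM, the calls of Acaca and of Elovl6 were each lost in 8 of the 24 fits with 1 library left out. In KEAP1 KO CM, that of Srebf1 was lost in 14 of these fits and that of Acaca in 7. Acss2 was called higher with CDDO-Me in all 4 media, and none of the other genes was called with CDDO-Me in control media.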

How the results depend on the processing

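Of 64 called gene values, none changed sign in 2368 alternative values, 142 of these missed the threshold, and 39 gene values were called in every alternative, including all 9 for CDDO-Me in KEAP1 KO CM. Over the gene values of all comparisons, called or not, 76 of 2210 values changed sign under other settings and 59 of 4080 with 1 library left out. TPM gives no depth, so counting error in low genes such as Elovl6 is not known.

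Counts of the 10 genes called that moved by over 1.5 times follow, and the cause was not tested. All genes called under a setting are given only where stated, so these moves are not read as particular to the 10. For WT CM against media under vehicle, 2 became 1 without scaling, 9 with array weights, 6 with the replicate block, 5 with the compared groups only, 5 without the 2 NRF2 KO CM libraries numbered 3, 6 without all libraries numbered 3 and 7 with the fibroblast term. The last 2 alternatives were chosen after seeing the data. For KEAP1 KO CM against WT CM under vehicle, 0 became 7 with array weights. For WT CM against NRF2 KO CM, 3 became 1 without scaling, 0 with the compared groups only and 5 with the fibroblast term. For KEAP1 KO CM against NRF2 KO CM, 5 became 9 with array weights, 0 with the compared groups only, 8 without libraries numbered 3 and 8 with the fibroblast term. For CDDO-Me in media, 1 became 2 with array weights, 2 with the replicate block, 3 without libraries numbered 3 and 2 with the fibroblast term. For CDDO-Me in NRF2 KO CM, 2 became 1 without scaling, 1 without the filter, 4 with array weights, 5 with the replicate block, 1 with the compared groups only, 1 without the 2 NRF2 KO CM libraries and 4 without libraries numbered 3. Under CDDO-Me, 6 for WT CM against media became 3 with the fibroblast term, 1 for KEAP1 KO CM against media became 3 with array weights, 3 with the replicate block, 2 without the 2 NRF2 KO CM libraries, 4 without libraries numbered 3 and 2 with the fibroblast term, and 0 for NRF2 KO CM against media became 1 with array weights. The replicate block moved no other count of the 10 by over 1.5 times.

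With 1 library left out, the counts ran from 1 to 3 for WT CM against media under vehicle, 3 to 6 for KEAP1 KO CM against NRF2 KO CM, 1 to 3 for CDDO-Me in NRF2 KO CM, 1 to 6 for WT CM against media and 1 to 2 for KEAP1 KO CM against media under CDDO-Me, and 5 to 9 for the interaction in WT CM.

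Of the values printed in the text, those that changed sign, none of them called, were Srebf1 in NRF2 KO CM against media under vehicle (0.0249 without libraries numbered 3), Fads1 for CDDO-Me in KEAP1 KO CM (-0.10 without scaling, and -0.0257 to 0.152 with 1 library left out, the sign turning without the third vehicle library), Srebf1 for the interaction in NRF2 KO CM (-0.0693 with array weights, -0.0798 without libraries numbered 3) and Fasn for the interaction of KEAP1 KO CM against WT CM (-0.442 to 0.0435 with 1 library left out, the sign turning without the third KEAP1 KO CM/CDDO-Me library).

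Without scaling the median of all genes moved by -0.148 for CDDO-Me in KEAP1 KO CM and by -0.151 for WT CM against media under CDDO-Me. The share of called genes that were higher went from 58.9% to 48.2% for WT CM against media under vehicle, 61.5% to 44.2% for WT CM against NRF2 KO CM, 49.9% to 39.1% and 50.5% to 34.6% for CDDO-Me in WT CM and KEAP1 KO CM, 51.1% to 33.6% and 54.5% to 37.4% for these media against control media under CDDO-Me, and 56.9% to 40.5% for the interaction in KEAP1 KO CM. With array weights all genes called went from 1003 to 4126 for WT CM and from 1087 to 5024 for KEAP1 KO CM against media under vehicle, from 821 to 3590 for CDDO-Me in media, from 3798 to 7140 in WT CM, from 3929 to 7017 in KEAP1 KO CM and from 1335 to 3033 in NRF2 KO CM.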
